A study of Homo sapiens with 10 samples.

Results

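MYB (ENSG00000118513) is the gene of a hematopoietic transcription factor, and it was 1 of the 59204 human genes listed in the count tables of this series. It was taken by its name, as an mRNA described as stable and as dependent on enhancers for its synthesis, and not by a threshold on a measured value, although earlier results of these data were known when it was chosen. New and total MYB RNA were followed by SLAM-seq in K562, an established line from a chronic myeloid leukemia. SLAM-seq feeds cells 4-thiouridine, a uridine analogue that is converted after RNA extraction and then sequenced as T-to-C changes. Labelled counts are reads with such changes, and total counts are all reads of a gene. All 5 groups received 100 µM 4-thiouridine for the final 1 hour of a 2 hour treatment, and each held 2 libraries. The control group received DMSO. Actinomycin D (1 µg/mL) intercalates into DNA and blocks elongation, and AZ-5576 (1 µM) is an inhibitor of CDK9, which frees paused RNA polymerase II for elongation. JQ1 (1 µM) keeps BET bromodomains off acetylated histones, and A-485 (1 µM) blocks the acetyltransferase activity of CBP and p300.

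MYB protein binds DNA through Myb repeats and recruits CBP and p300 through its activation domain. It keeps hematopoietic progenitors dividing and immature, its level falls as erythroid cells mature, and several kinds of leukemia depend on it. In erythroid cells its promoter is contacted by distal enhancers between HBS1L and MYB that are occupied by GATA1, TAL1, LDB1 and KLF1.

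In GENCODE 29 on hg38, MYB spans chr6:135181315-135219173 on the plus strand, 37859 bases, with 42 transcripts of which 14 are protein-coding and 20 end within 10 bases of the end of the gene. The libraries read the poly(A) end of mRNA, so the counts do not separate transcripts that share that end. The antisense gene MYB-AS1 lies inside MYB and had 0 total counts in DMSO. HBS1L, the neighbour on the upstream side, lies on the minus strand with the near edge of its GENCODE span 78259 bases away, and AHI1 on the downstream side lies on the minus strand 64359 bases away.

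The 250 bases upstream of the RefSeq start site (GRCh38.p14) are shown for MYB, for HBS1L as its neighbour across the enhancer interval and for MYBL2 as the measured paralogue, since these genes are compared below in new RNA. Capitals mark an E2F-type motif (TTTGGCGG) and the GC box (GGGCGG), each on either strand. The windows are chr6:135181058-135181307 on the plus strand, chr6:135054823-135055072 on the minus strand and chr20:43666864-43667113 on the plus strand. The RefSeq start site of HBS1L lies inside the GENCODE span of the gene, farther from MYB than the near edge of that span.
MYB: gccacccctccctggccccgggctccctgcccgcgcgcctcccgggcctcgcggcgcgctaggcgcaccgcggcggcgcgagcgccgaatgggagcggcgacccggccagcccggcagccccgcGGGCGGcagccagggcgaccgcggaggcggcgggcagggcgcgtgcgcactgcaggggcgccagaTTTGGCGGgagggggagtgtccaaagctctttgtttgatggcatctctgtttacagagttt
HBS1L: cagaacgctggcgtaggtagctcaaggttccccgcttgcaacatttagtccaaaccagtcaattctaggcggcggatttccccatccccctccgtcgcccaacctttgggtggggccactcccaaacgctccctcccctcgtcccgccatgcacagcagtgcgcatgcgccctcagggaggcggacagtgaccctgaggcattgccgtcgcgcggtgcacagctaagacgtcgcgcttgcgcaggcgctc
MYBL2: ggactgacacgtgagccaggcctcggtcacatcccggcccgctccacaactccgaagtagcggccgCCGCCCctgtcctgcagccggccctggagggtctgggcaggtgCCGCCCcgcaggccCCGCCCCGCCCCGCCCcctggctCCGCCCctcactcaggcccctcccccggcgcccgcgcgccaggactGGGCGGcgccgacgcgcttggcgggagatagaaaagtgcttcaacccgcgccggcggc
The MYB window was 75.6% G and C, beside 64% for HBS1L, 76.8% for MYBL2 and a median of 58% over the 35116 RefSeq promoter windows. It held 1 E2F-type motif, which began 61 bases before the start site, and 1 GC box, which began 126 bases before it. The E2F-type motif was in 0.538% of all windows and the GC box in 42.6%. MYBL2 held 7 GC boxes, of which some overlap, and HBS1L held neither motif. The exact E2F-type motif had 0 matches in MYBL2, but that window holds CTTGGCGG, which differs from it by 1 base. The exact match therefore does not set MYB apart from MYBL2. The short core AACNG that MYB protein binds was in the MYB window 1 time, as in 70.6% of all windows. GATAA, the core bound by GATA factors, was in 20.4% of windows and in none of these 3. The E2F-type motif was picked after the MYB sequence had been read, and a match is a description and not a site of binding.

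Total human counts ran from 14916671 to 17918971 per library and spike-in counts from 1817677 to 2212752. Relative to DMSO, the sum of labelled RNA was 0.303% under actinomycin D, 12.5% under AZ-5576, 64.7% under JQ1 and 91.4% under A-485, while total RNA stood at 91.1 to 98.1%. Drosophila RNA was added to purified RNA, so every level is per amount of RNA. A change in the number of cells, or a change in RNA per cell that all RNA shares, does not show in such levels. The label K562 was met by its globins, GATA1, TAL1, KLF1, NFE2, glycophorin A and PRAME, with PRAME at 38828 to 48846 counts per library. Among markers of other cells MS4A1, MPO and KRT5 were at 0 in all libraries, but CD3D (412 to 656 counts), EPCAM (929 to 1116) and LYZ (235 to 329) were detected in every group. Nothing in the labels says that the libraries of a group came from separate cultures, so the p-values measure the spread between these samples, which may be technical.

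New MYB RNA fell with all 4 drugs, to 10.8% of DMSO or less. The DMSO libraries held 98 and 106 labelled MYB counts. Actinomycin D left 1 and 0, AZ-5576 left 3 and 11, JQ1 left 18 and 8, and A-485 left 10 and 2. Every treated library lay far below both DMSO libraries, and the libraries of AZ-5576, JQ1 and A-485 overlapped one another. Levels were scaled to 1000000 spike-in counts and are called scaled counts. Labelled MYB was at 51.7 and 58.3 scaled counts in DMSO (mean 55 ± 4.68, SD, n = 2). The scaled counts were 0.497 and 0 under actinomycin D, 1.64 and 5.34 under AZ-5576 (3.49 ± 2.62), 8.13 and 3.79 under JQ1 (5.96 ± 3.07), and 5.08 and 1.01 under A-485 (3.04 ± 2.88).

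**Figure D1:**
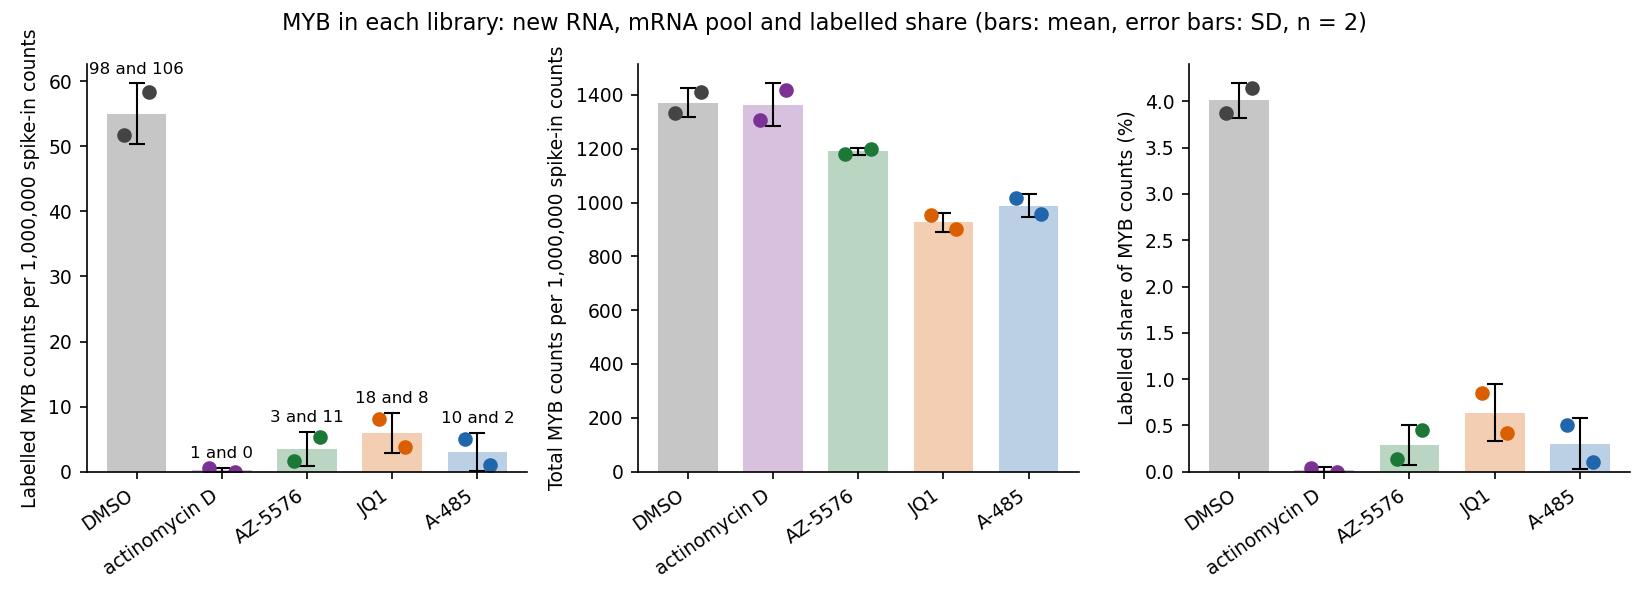
MYB in each of the 10 libraries: labelled counts per 1000000 spike-in counts (left, with raw counts written above the bars), total counts on the same scale (middle) and labelled share in % (right). Points are libraries, bars means and error bars SD (n = 2). Labelled MYB is low with every drug, whereas total MYB with actinomycin D (1306 and 1419) spans the DMSO range and is lower with JQ1 (952 and 902) and A-485 (1018 and 959).

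By these means AZ-5576 left 6.35% of the labelled MYB of DMSO, JQ1 10.8% and A-485 5.53%. The pooled counts gave 95% counting intervals of 3.52 to 11.3%, 6.98 to 16.5% and 2.81 to 9.86% around 6.55, 10.9 and 5.52%. With actinomycin D a single labelled read was left, a pooled ratio of 0.434% with a counting interval of 0.0109 to 2.45%. Such intervals take in the error of counting alone, and reads may be copies of 1 molecule. Over genes with enough labelled counts, replicate libraries spread more than counting error, which would give a chi-square per degree of freedom of about 1. It was 2.48 in DMSO, 2.93 under AZ-5576, 3.06 under JQ1 and 2.64 under A-485, so the intervals are too narrow for the spread between libraries.

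The fall passed the test with each drug (edgeR quasi-likelihood test, Benjamini-Hochberg adjusted over 7996 genes). Against DMSO, labelled MYB fell by 3.92 on the log2 scale with AZ-5576 (SE 0.51, adjusted p = 1.1e-13), a comparison in which 94.7% of genes tested were lower. With JQ1 it fell by 3.19 (SE 0.47, adjusted p = 1.6e-09), where 28.6% of genes were lower and the median was -0.85. With A-485 it fell by 4.15 (SE 0.53, adjusted p = 8.1e-13), where 4.86% of genes were lower and the median was -0.09. With actinomycin D the call had an adjusted p of 3.3e-22 and 99.2% of genes were lower, and its fitted change depends on the prior count of the fit and is not read as a size. Single libraries moved the sizes, and no call was lost: AZ-5576 gave -5.01 without its replicate 2, JQ1 gave -3.84 without its replicate 1, and A-485 gave -5.69 without its replicate 1 and -3.42 without its replicate 2.

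MYB therefore stood differently among the genes in each comparison. Of the 2067 genes that averaged 50 or more labelled counts in DMSO, MYB ranked 14 from the lowest with A-485 and 31 with JQ1. With AZ-5576 it ranked 1551, in the less affected part of a distribution in which nearly all genes were lower. In the scale of human counts alone (TMM), which moves the median of all genes up by 2.89 with AZ-5576 and by 1.07 with actinomycin D, MYB was not called with AZ-5576 (-0.38, edgeR adjusted p = 0.574) or actinomycin D (-2.43, adjusted p = 0.199). With JQ1 and A-485 it kept its call under every setting tried.

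**Figure D2:**
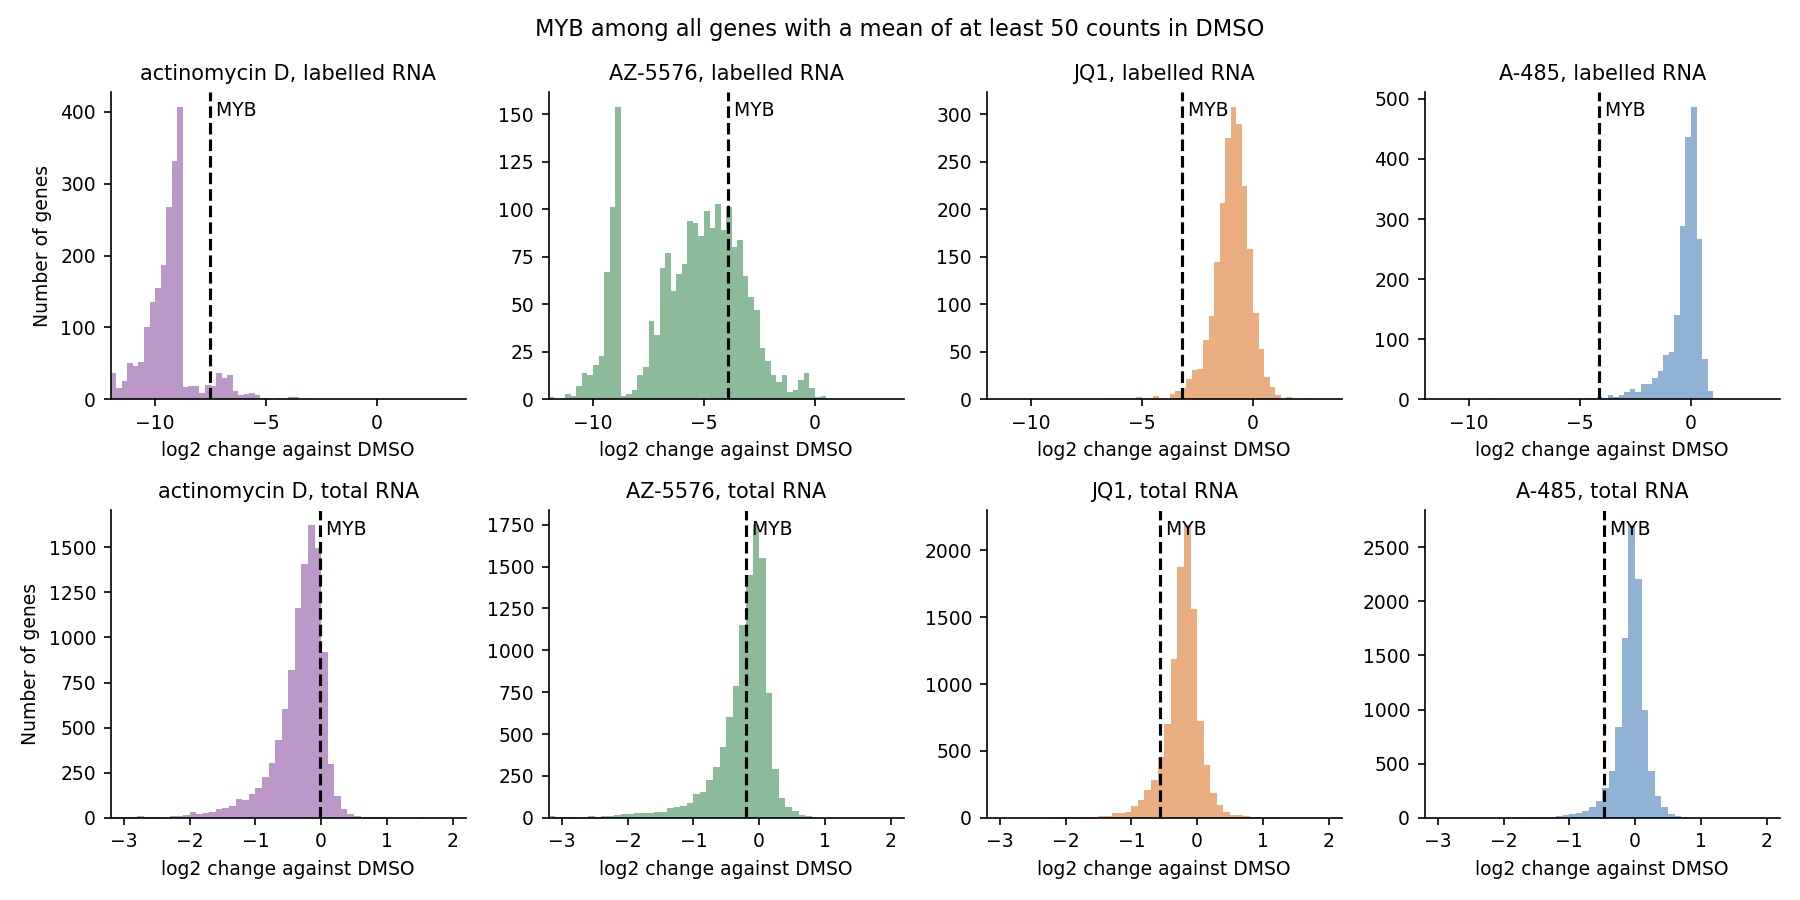
Histograms of the log2 change against DMSO, over genes that average 50 or more counts in DMSO, in labelled RNA (top) and total RNA (bottom), with MYB as a dashed line. Values beyond the axes are put in the outermost bin or not drawn. MYB lies in the low tail with JQ1 and A-485 in labelled RNA (-3.19 and -4.15), at the upper side of the bulk with AZ-5576 (-3.92), and near no change in total RNA with actinomycin D (-0.01).

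The drugs were then compared with one another, in 6 pairs, with p-values adjusted over the genes of each pair. New MYB RNA was called higher than with actinomycin D for AZ-5576 (edgeR adjusted p = 0.0107, 20.5% of genes higher), for JQ1 (adjusted p = 3.4e-05, 95.2% higher) and for A-485 (adjusted p = 0.00429, 98.4% higher). Each rests on a single labelled read in the actinomycin D group, so the fitted changes are not read as sizes. The ratio of pooled counts per spike-in count was 15.1 for AZ-5576 (14 reads against 1, exact 95% counting interval 2.3 to 638), 25.2 for JQ1 (26 reads, 4.14 to 1033) and 12.7 for A-485 (12 reads, 1.88 to 544). With spike-in scaling, no pair of the other drugs was called. JQ1 against AZ-5576 differed by 0.74 (95% interval -0.87 to 2.34, adjusted p = 0.255), A-485 against AZ-5576 by -0.23 (-2.05 to 1.59, adjusted p = 0.752) and A-485 against JQ1 by -0.97 (-2.61 to 0.68, adjusted p = 0.257). On the TMM scale labelled MYB was called lower than with AZ-5576 for JQ1 (-1.94, adjusted p = 0.0162), a change of direction, and for A-485 (-3.51, adjusted p = 3.8e-05). Leaving out actinomycin D replicate 2 ended the call against actinomycin D for AZ-5576 (adjusted p = 0.197) and for A-485 (adjusted p = 0.0636). So did leaving out AZ-5576 replicate 2 (adjusted p = 0.336) and A-485 replicate 1 (adjusted p = 0.305), while JQ1 against actinomycin D lost its call only on the TMM scale (adjusted p = 0.954).

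The MYB mRNA pool was ordered otherwise than new MYB RNA. The DMSO libraries held 2526 and 2561 total MYB counts, or 1333 and 1409 scaled counts (1371 ± 54, SD, n = 2). With actinomycin D they held 2630 and 3090 counts, or 1306 and 1419 scaled counts (1363 ± 80.1), a range that takes in both DMSO libraries although a single labelled MYB read was left in this group. AZ-5576 gave 1182 and 1200 scaled counts (1191 ± 13.1), JQ1 gave 952 and 902 (927 ± 35.1) and A-485 gave 1018 and 959 (989 ± 41.1). All libraries of these 3 drugs lay below DMSO and below actinomycin D, and those of JQ1 and A-485 also lay below AZ-5576. Over genes with enough total counts, the chi-square per degree of freedom between replicates was 12.5 under JQ1 and 4.13 to 6.29 in the other groups. The tests of total RNA share their estimate of spread over all groups, so they do not take the wider JQ1 spread by itself.

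Total MYB fell with JQ1 by 0.56 on the log2 scale (95% interval -0.83 to -0.30, edgeR adjusted p = 0.00023 over 14572 genes), to 67.6% of DMSO, where 7.35% of genes were lower and the median of all genes was -0.19. It fell with A-485 by 0.47 (-0.73 to -0.21, adjusted p = 0.00567), to 72.1% of DMSO, where 1.2% of genes were lower and the median was -0.04. The change with actinomycin D was -0.01 (-0.27 to 0.25, adjusted p = 0.97), at 99.4% of DMSO, while 19.7% of genes were lower and the median was -0.27. The change with AZ-5576 was -0.20 (-0.46 to 0.06, adjusted p = 0.215), at 86.9% of DMSO, while 12.9% of genes were lower. Among the 10409 genes that averaged 50 or more total counts in DMSO, the rank of MYB from the lowest was 580 under A-485, 1056 under JQ1, 4322 under AZ-5576 and 8857 under actinomycin D. The call with A-485 was lost without DMSO replicate 2 (-0.43, adjusted p = 0.139), without A-485 replicate 1 (-0.51, adjusted p = 0.0783) and without A-485 replicate 2 (-0.43, adjusted p = 0.32). With actinomycin D the TMM scale gave 0.24 higher (adjusted p = 0.0375), a scale on which the median of all genes moved up by 0.25.

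The difference between the drugs was tested directly. Total MYB was lower with JQ1 than with actinomycin D by 0.56 on the log2 scale, a change of -0.56 (95% interval -0.82 to -0.29, edgeR adjusted p = 0.00016), in a comparison where 0.556% of genes were lower and the median was 0.05. With A-485 against actinomycin D the change was -0.46 (-0.72 to -0.20, adjusted p = 0.00099), where 0.652% of genes were lower and the median was 0.21. MYB ranked 109 and 122 from the lowest of 10409 genes in these contrasts, and both calls held under every setting tried, including each library left out. JQ1 was also lower than AZ-5576 (-0.36, adjusted p = 0.0269, 0.707% of genes lower), a call that was lost without AZ-5576 replicate 1 (-0.37, adjusted p = 0.147), AZ-5576 replicate 2 (-0.35, adjusted p = 0.189) or JQ1 replicate 2 (-0.32, adjusted p = 0.129). A-485 against AZ-5576 gave -0.27 (-0.53 to -0.01, adjusted p = 0.0834), AZ-5576 against actinomycin D -0.19 (-0.46 to 0.07, adjusted p = 0.504) and A-485 against JQ1 0.09 (-0.17 to 0.36, adjusted p = 0.68).

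In scaled counts, labelled MYB was lower than in DMSO by 49 with JQ1 and by 52 with A-485, and total MYB was lower by 444 and 382. With AZ-5576 the labelled difference was 51.5, about as large, and the total difference was 180. Labelled counts miss new RNA that carries no detected conversion and cover only the final 1 hour of the treatment, so the labelled and total differences are not on the same footing.

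To see how often this total RNA pattern occurred, genes were counted across the table by a rule set after the values of MYB were seen. In total RNA 103 genes were lower with both JQ1 and A-485. Under actinomycin D 92 of these were also lower, under AZ-5576 87 were, and 9 were lower under neither. Only MYB and AC079466.1, a long intergenic noncoding RNA, of these 9 were also lower with both drugs than with actinomycin D in the fit used here. AC079466.1 changed in total RNA by -0.51 with JQ1 and -0.45 with A-485, and was at -0.10 with actinomycin D and -0.01 with AZ-5576. The count of such genes ranged from 0 to 6 over the other settings, was 0 without A-485 replicate 1 or without A-485 replicate 2, and did not include MYB in those fits or without DMSO replicate 2, where it was 1.

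The label of MYB as a stable mRNA was set against its turnover. In DMSO 3.88 and 4.14% of MYB counts were labelled (mean 4.01% ± 0.183, SD, n = 2, pooled 95% Wilson interval 3.5 to 4.58%). That placed MYB at percentile 53 of the 10409 genes, whose median was 3.71%. By the total RNA left with actinomycin D, 99.4% beside a median of 84.5%, it stood at percentile 85.1. The 9 mRNAs listed as short-lived all fell in total RNA with actinomycin D, with a median of -1.82 on the log2 scale, and 8 of them did so whichever library was left out. MYC, a proliferation factor, was left at 28.3% of DMSO and had a labelled share of 24.6%. EGR1, an immediate early factor, was left at 8.67% with a share of 45%, and MCL1, a survival protein, at 44% with a share of 7.89%. None of the 9 mRNAs listed as long-lived, globin, glycolytic and ribosomal among them, was lower with actinomycin D by edgeR, by DESeq2 or at an unadjusted edgeR p under 0.05, and their median was -0.01, next to the -0.01 of MYB. With TMM scaling 5 of the 9 were higher. By the actinomycin D readout MYB stood with the mRNAs listed as long-lived, while its labelled share was in the middle of all genes. With AZ-5576 its total RNA was at 86.9%, below the median of 90.8% and below the long-lived mRNAs (94.9 to 108%), though not called lower. The MYB share of 4.01% was also above those of the long-lived mRNAs (0.673 to 3.95%), with HBG2 close to it. MYB was chosen under this label with earlier results of these data known, so this is a description and not independent support. After the same 2 hours its total RNA was at 67.6% of DMSO with JQ1 and 72.1% with A-485. Conversions need uridines in the read window, and the last 250 bases of the longest MYB transcript were 33.6% U, at percentile 58.9 of 7877 genes (median 31.6%).

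**Figure D3:**
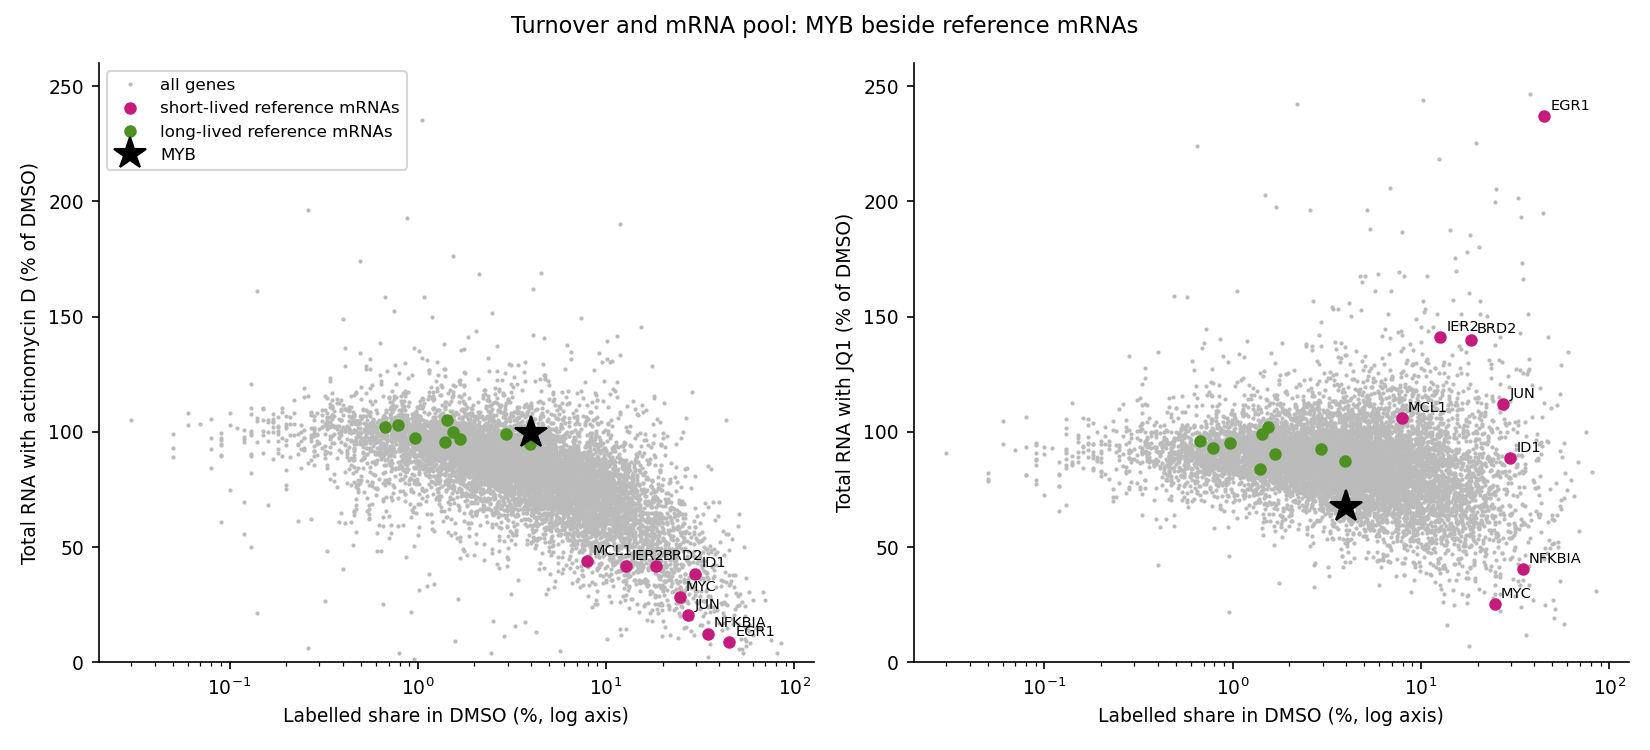
Labelled share in DMSO (%, log axis) against the total RNA left with actinomycin D (left) and JQ1 (right), in % of DMSO, for genes that average 50 or more total counts in DMSO. Genes with no labelled counts and points above the axis are not drawn. MYB (star, share 4.01%) lies with the long-lived mRNAs at 99.4% with actinomycin D but at 67.6% with JQ1, below all long-lived mRNAs shown.

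The labelled share compares labelled with unlabelled MYB counts inside each library and does not use the spike-in. The share was 0.038 and 0% under actinomycin D, 0.139 and 0.445% under AZ-5576, 0.855 and 0.42% under JQ1, and 0.499 and 0.105% under A-485. All treated libraries lay below the 3.88% of the lower DMSO library. The count of 0 among 3090 reads in actinomycin D replicate 2 has an upper Wilson bound of 0.124%. The ratio of labelled to unlabelled MYB fell by 2.68 on the log2 scale with JQ1 (SE 0.45, edgeR adjusted p = 9.6e-06, 15.4% of 7960 genes lower, median of all genes -0.67) and by 3.75 with A-485 (SE 0.51, adjusted p = 5.1e-08, 2.64% lower, median -0.07). It fell by 3.78 with AZ-5576 (SE 0.50, adjusted p = 2.2e-10, 93.6% lower). With actinomycin D the adjusted p was 1.5e-15, and 98.6% of genes were lower. No share call was lost with a library left out, but the sizes moved, to -3.29 with JQ1 (without JQ1 replicate 1), to -5.23 and -3.04 with A-485 (without its replicate 1 or 2) and to -4.86 with AZ-5576 (without its replicate 2).

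Genes around MYB were described next, from lists that hold the family, the locus, and the factors that act on the gene or its protein. MYBL2, the paralogue that drives cell cycle genes, was not called with JQ1 or A-485. Its labelled counts were 14 and 19 in DMSO. Both libraries of actinomycin D and of AZ-5576 had 0, and MYBL2 was called lower there (edgeR adjusted p = 6.4e-07 and 1.3e-06), though not on the TMM scale. They were 16 and 14 under JQ1, while A-485 gave 17 and 23, and the groups overlapped. Its changes were -0.36 (SE 0.66) and 0.18 (SE 0.65), neither called, and in total RNA it was at -0.08 with JQ1 and -0.02 with A-485. The difference between MYBL2 and MYB was not tested. MYBL1, the other paralogue, was not tested in labelled or total RNA and had no count in DMSO.

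Both measured neighbours of MYB were lower in new RNA with JQ1, where 28.6% of all genes were lower and the median was -0.85. Neither was called with A-485, where 4.86% of all genes were lower and the median was -0.09. The median of the 2 neighbours was -1.41 with JQ1 and -1.05 with A-485, so the calls alone do not set the drugs apart. HBS1L, which encodes a GTPase of ribosome rescue, went from 62 and 47 labelled counts to 21 and 28 with JQ1, a change of -1.36 (SE 0.46, edgeR adjusted p = 0.0147), and to 31 and 35 with A-485, a change of -0.81 (SE 0.44, adjusted p = 0.452). AHI1, a protein of the cilium base, went from 53 and 28 to 17 and 17 with JQ1 (-1.46, SE 0.53, adjusted p = 0.025) and was at 18 and 17 with A-485 (-1.29, SE 0.53, adjusted p = 0.189). In total RNA HBS1L was lower with JQ1 (-0.48, edgeR adjusted p = 0.0407) and at 0.01 with A-485. AHI1 was not called in total RNA with either drug. The median of both neighbours there was -0.41 with JQ1 and -0.32 with A-485, beside -0.19 and -0.04 for all genes. With A-485, 1 of the 2 had an unadjusted edgeR p under 0.05. Whether MYB differs from its neighbours was not tested. The JQ1 calls of the neighbours were all lost on the TMM scale. In labelled RNA, HBS1L also lost its call without DMSO replicate 1 (-1.18), DMSO replicate 2 (-1.52) or JQ1 replicate 1 (-1.14). AHI1 lost it without DMSO replicate 1 (-0.96), JQ1 replicate 1 (-1.43) or JQ1 replicate 2 (-1.49), and with DESeq2 (adjusted p = 0.0504) or no filter on low counts (edgeR adjusted p = 0.0555). In total RNA the call of HBS1L was lost without DMSO replicate 2 (-0.36) or either JQ1 replicate (-0.47 and -0.50), with size factors of spike-in genes (edgeR adjusted p = 0.0545) and with only these groups in the fit (adjusted p = 0.0601). ALDH8A1, PDE7B and MYB-AS1 had too few counts to be tested.

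Most erythroid transcription factors known from MYB enhancers had less new RNA with JQ1 and A-485, as MYB did. Of 11 listed, 8 were measured in labelled RNA, and 8 were lower with JQ1 (median -2.27) and 7 with A-485 (median -3.00), where 28.6% and 4.86% of all genes were lower, with medians of -0.85 and -0.09. LMO2, a bridging subunit of the TAL1 complex, went from 75 and 57 labelled counts to 8 and 5 under JQ1, while A-485 left 5 and 6. LYL1, a relative of TAL1, went from 131 and 68 to 16 and 19 and to 1 and 4. The changes with JQ1 and A-485 were -3.54 (SE 0.58) and -3.64 (SE 0.60) for LMO2, and -2.71 (SE 0.46) and -5.33 (SE 0.62) for LYL1.

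GATA2, a GATA factor of progenitors, went from 347 and 339 labelled counts to 236 and 197 with JQ1 (-0.89, SE 0.22) and to 59 and 33 with A-485 (-2.99, SE 0.25). GATA1, the main erythroid GATA factor, changed by -2.02 and -3.01, and TAL1 by -2.51 and -2.98. KLF1, an erythroid activator, changed by -2.94 and -3.31, and RUNX1 by -1.91 and -2.18. TCF3, the E protein partner of TAL1, was lower with JQ1 (-1.25) and not called with A-485 (-0.41). The calls of GATA2, TAL1, LMO2, KLF1 and LYL1 held with both drugs whichever library was left out, and the lowest number kept in any such fit was 6 with JQ1 (without DMSO replicate 1) and 5 with A-485 (without A-485 replicate 2). TMM scaling left 4 of 8 lower with JQ1 and 7 with A-485, and GATA2 with JQ1 was at -0.02. Sizes that rested on single libraries were those of KLF1 with JQ1 (-3.73 without JQ1 replicate 2) and with A-485 (-4.85 without its replicate 1 and -2.58 without its replicate 2), of TAL1 with A-485 (-3.80 without A-485 replicate 2) and of LYL1 with A-485 (-4.68 and -6.55 without its replicate 1 or 2).

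The mRNA pools of most of these factors were lower with JQ1 and A-485, and in part with the other drugs. Of 9 measured in total RNA, 7 were lower with JQ1 (7.35% of all genes), 6 with A-485 (1.2%), 6 with actinomycin D (median -0.37, 19.7% of all genes) and 5 with AZ-5576 (median -0.46, 12.9%). GATA1, TCF3 and LDB1 were not called with actinomycin D (edgeR adjusted p = 0.0851, 0.29 and 0.0566), and no factor was tested against MYB. LMO2 had 693 and 688 total counts in DMSO and 517 and 518 under actinomycin D (-0.59). It had 458 and 352 under JQ1 (-0.99), while A-485 left 472 and 385 (-0.78). GATA2 was at -0.96 with actinomycin D, -0.83 with JQ1 and -1.42 with A-485, and LYL1 at -0.37, -0.69 and -0.67. The members of this list were chosen with earlier results on these libraries known, so their direction is not independent support. With A-485 the number kept fell to 2 of 6 without A-485 replicate 2, with JQ1 to 5 of 7 without DMSO replicate 2, with actinomycin D to 3 of 6 without actinomycin D replicate 1, and with AZ-5576 to 3 of 5 without AZ-5576 replicate 1. Scaled by TMM, the number lower was 2 under actinomycin D, 3 under AZ-5576, 4 under JQ1 and 5 under A-485.

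With JQ1 and A-485, a minority of the coactivators and chromatin partners of MYB protein was called. Of 7 measured, 3 were lower in labelled RNA with JQ1 (median -0.95) and 1 with A-485 (median 0.02), where 28.6% and 4.86% of all genes were lower and the medians of all genes were -0.85 and -0.09. CREBBP and EP300, which encode the A-485 targets CBP and p300, changed by -1.42 (edgeR adjusted p = 0.0236) and -0.96 (adjusted p = 0.0141) with JQ1, and were at 0.02 and 0.16 with A-485. KMT2A, a histone methyltransferase gene rearranged in leukemia, changed by -1.36 with JQ1 and by -1.36 with A-485. None of these calls held over all fits that left out a library. Without DMSO replicate 1, none of the 4 was kept (CREBBP -1.67, EP300 -0.90 and KMT2A -1.30 with JQ1, and KMT2A -1.29 with A-485). KMT2A with JQ1 was at -2.09 without JQ1 replicate 1. With TMM, 0 were lower and 1 was higher with JQ1, and 0 were called with A-485. In total RNA edgeR and DESeq2 called 0 members with JQ1 or A-485, at edgeR medians of -0.18 and -0.02, and 1 member had an unadjusted edgeR p under 0.05 with each.

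Among 8 inhibitors and modifiers of MYB protein, PIM1, a kinase that binds MYB, was lower in new RNA with JQ1 and A-485. PIM1 went from 158 and 68 labelled counts to 38 and 14 with JQ1 (-2.33, SE 0.41) and to 11 and 8 with A-485 (-3.64, SE 0.47). These sizes rested in part on DMSO replicate 1, without which they were -1.64 and -2.94, and with JQ1 on JQ1 replicate 1 (-3.18 without it). SKI, a corepressor, was higher with JQ1, from 72 and 68 to 196 and 172 (1.17, SE 0.28), where 1.26% of genes were higher, and was at 0.39 with A-485. The other 6, among them FBXW7, a ubiquitin ligase subunit that targets MYB, were not called with either drug, and the list medians were -0.44 and -0.11. HIPK2, a kinase linked to MYB degradation, was the only member not lower in labelled RNA with AZ-5576 (0.69, edgeR adjusted p = 0.196). In total RNA edgeR called no member with JQ1 or A-485, PIM1 included (-1.09 and -1.60, adjusted p = 0.0782 and 0.0926). At an unadjusted p under 0.05 there were 3 members with JQ1 and 1 with A-485, and DESeq2 called 1 with each, PIM1 in both cases. After TMM scaling 1 was lower and 2 were higher in labelled RNA with JQ1, and 1 was higher in total RNA.

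DLEU2 and SMC4, whose transcripts hold microRNAs of the miR-15 and miR-16 family that target MYB, were not called by edgeR or DESeq2 in labelled RNA with JQ1 (0.43 and 0.11) or A-485 (1.01 and 0.13), and 0 had an unadjusted edgeR p under 0.05. DESeq2 gave no adjusted p for 1 of them with A-485. MIR155HG had too few counts. By TMM 1 of DLEU2 and SMC4 was higher with JQ1. DLEU2 had only 8 and 4 labelled counts in DMSO and 16 and 3 with JQ1 (SE 0.93). It reached the minimum of 10 counts in treated libraries alone, so its lack of a call says little.

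Target genes of MYB were measured in part, since 7 of 16 had enough labelled counts. With JQ1 4 were lower (median -1.19, beside -0.85 and 28.6% of all genes lower) and with A-485 3 (median -0.58, beside -0.09 and 4.86%). MYC went from 109 and 108 labelled counts to 40 and 6 with JQ1 (-2.46, SE 0.41) and to 7 and 19 with A-485 (-3.14, SE 0.45). The size for MYC with JQ1 was -4.33 without JQ1 replicate 1 and -1.69 without JQ1 replicate 2, and with A-485 it was -4.02 without A-485 replicate 2. KLF1 and LMO2, already given above, were the other genes called with both drugs. CDK6, a G1 kinase, was lower with JQ1 (-1.19, edgeR adjusted p = 0.0246) and at -0.06 with A-485, and the JQ1 call was lost without DMSO replicate 2 (-0.78) and without JQ1 replicate 1 (-0.93). CCNB1, a mitotic cyclin, was not called with either drug. In total RNA the members lower with each of the 4 drugs were 3 of 11, where the share of all genes lower was 19.7% for actinomycin D, 12.9% for AZ-5576, 7.35% for JQ1 and 1.2% for A-485. With JQ1 and A-485 these were MYC, KLF1 and LMO2. Some of the total RNA calls were lost with a library left out. LMO2 with A-485 lost its call without A-485 replicate 2 (-0.63). With AZ-5576, KLF1 lost it without DMSO replicate 1 (-0.39), and LMO2 without DMSO replicate 2 (-0.49) or either AZ-5576 replicate (-0.53 and -0.50). With actinomycin D, KLF1 lost it without DMSO replicate 1 (-0.21) or either actinomycin D replicate (-0.35 and -0.30). The myeloid and lymphoid targets MPO, ELANE, BCL11A, CD34 and GATA3 had too few counts to be tested in total RNA. On the TMM scale 3 were lower in labelled RNA with each of JQ1 and A-485, and in total RNA 1 was lower with actinomycin D, 2 with AZ-5576 and 3 with each of the others.

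**Figure D4:**
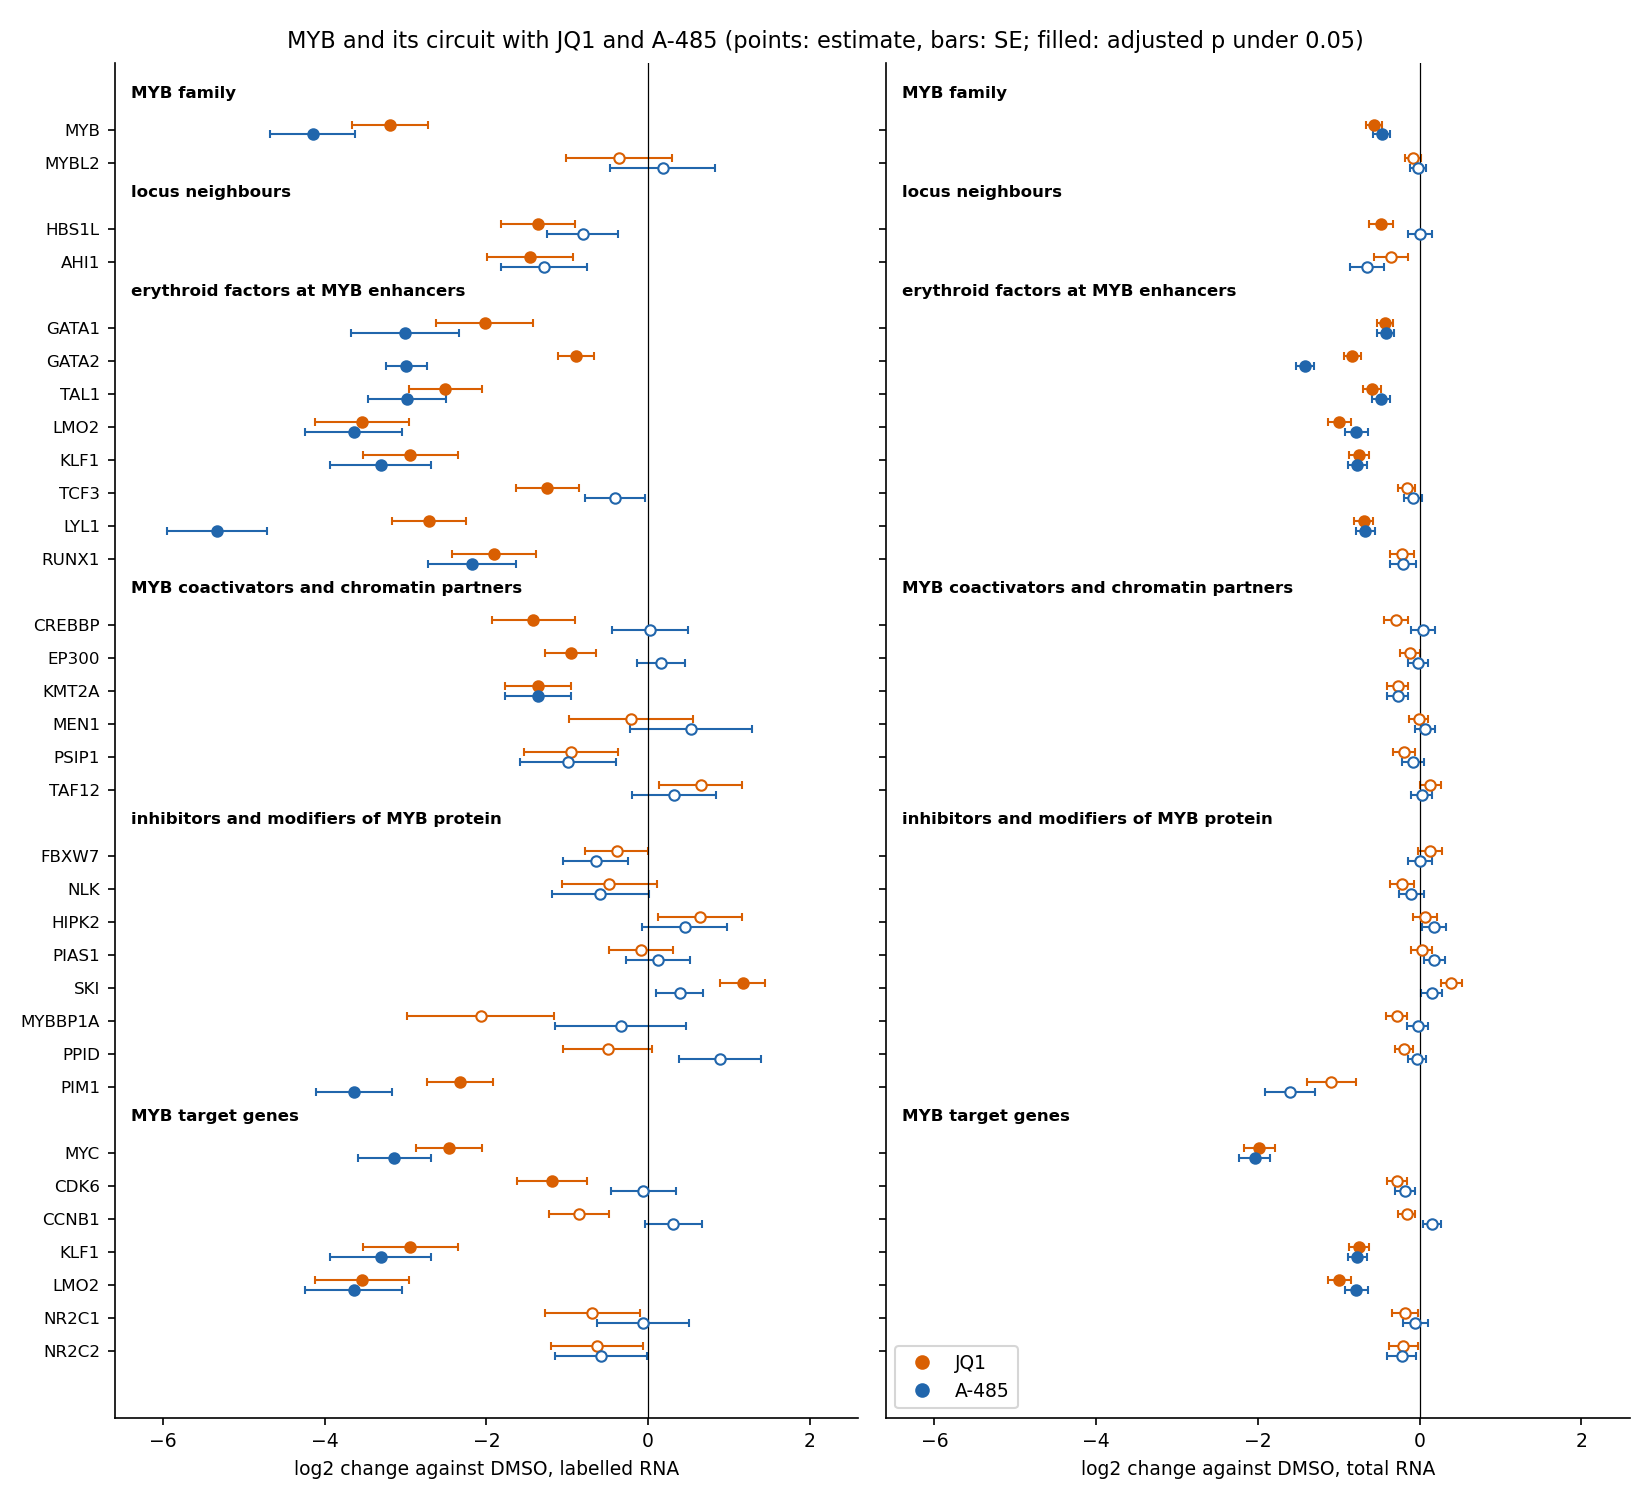
Log2 change against DMSO with JQ1 (orange) and A-485 (blue) in labelled RNA (left) and total RNA (right) for MYB and measured genes of its lists, save 1 coactivator. Points are edgeR estimates, bars SE, and filled points have an adjusted p under 0.05. MYB and most of the erythroid factors lie far to the left in labelled RNA, with LYL1 at -5.33 with A-485. Less far lie TCF3 (-1.25 with JQ1 and -0.41 with A-485) and GATA2 with JQ1 (-0.89). MYBL2 lies near 0 in both panels.

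Genes most like MYB were found by the root mean square difference from MYB over 7 log2 changes against DMSO, 3 in labelled RNA (AZ-5576, JQ1 and A-485) and 4 in total RNA, among 2066 genes that averaged 50 or more labelled counts in DMSO. The 8 closest were HBG2 (distance 0.2425), FADS1 (0.2801), NMU (0.2904), LMO2 (0.4136), ZBTB7B (0.5267), KCNH2 (0.5822), CAVIN2 (0.6631) and HDAC7 (0.6688), where the median distance was 1.98. HBG2 encodes fetal gamma globin, FADS1 a fatty acid desaturase, NMU the peptide neuromedin U and KCNH2 a potassium channel. ZBTB7B is a zinc finger repressor, CAVIN2 a caveola protein and HDAC7 a class II histone deacetylase. Of these, 3 were also among the 8 with the highest Pearson correlation with MYB over 8 libraries and 5 among the 8 closest with a minimum of 20 counts.

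These genes resembled MYB in new and total RNA by the way they were chosen, so their values are a description. HBG2 went from 850 and 762 labelled counts to 82 and 98 with JQ1 (-3.38) and to 37 and 40 with A-485 (-4.47). Its total counts were 20126 and 20688 in DMSO. JQ1 gave 19938 and 21513 (-0.20), and A-485 gave 18093 and 19556 (-0.21), neither called. HBG2 shares nearly identical sequence with HBG1, so reads could be split between them and its values are uncertain. KCNH2 went from 435 and 432 labelled counts to 24 and 22 under JQ1 (-4.45), while A-485 left 54 and 35 (-3.37). NMU went from 127 and 115 to 20 and 15 (-3.00) and to 7 and 5 (-4.40).

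In total RNA HBG2, FADS1, NMU, KCNH2 and HDAC7 were not called with any drug, and their changes with JQ1 ran from -0.25 to -0.11. Total RNA of MYB, at -0.56, was lower than that, with a labelled share of 4.01% beside 3.95% for HBG2 and 3.93% for KCNH2. LMO2, ZBTB7B and CAVIN2 were lower in total RNA with all 4 drugs, actinomycin D included (-0.59, -0.60 and -0.40), and their labelled shares were 9.56, 10.51 and 11.29%. The difference between MYB and these genes was not tested. The total calls of the 3 genes with JQ1 held whichever library was left out, and with A-485 1 of 3 was kept without A-485 replicate 2. With AZ-5576 0 of 3 were kept without AZ-5576 replicate 1, and with actinomycin D 1 of 3 was kept without actinomycin D replicate 1. On the TMM scale none of the 3 was called with either of these drugs.

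**Figure D5:**
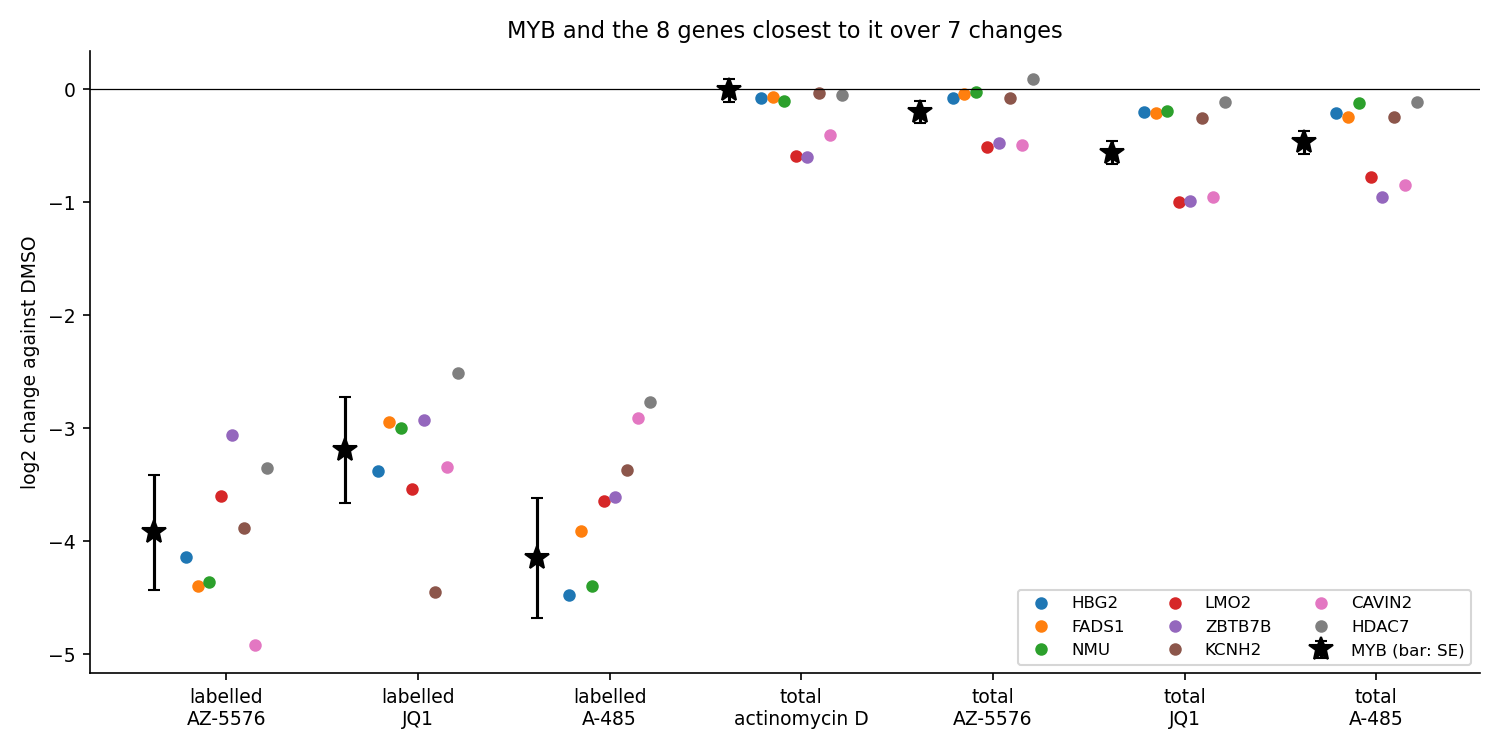
Log2 change against DMSO of MYB (star, bar SE) and of the 8 genes closest to it, in labelled RNA with AZ-5576, JQ1 and A-485 and in total RNA with each drug. In total RNA with JQ1, MYB at -0.56 lies between HBG2, FADS1, NMU, KCNH2 and HDAC7 (-0.25 to -0.11) and LMO2, ZBTB7B and CAVIN2 (-0.99 to -0.95).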

How the data were processed

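SLAM-seq libraries of K562 cells, 2 for DMSO and 2 for each of 4 drugs, were analysed from 3 tables of raw read counts per gene as deposited by the authors: total human, T-to-C converted human (labelled) and Drosophila spike-in counts, per the file headers. Per the labels' protocols, RNA was alkylated, given a 5% spike of S2 cell RNA from Drosophila and turned into QuantSeq 3′ libraries. Per the submitters' processing notes, bcl2fastq 2.17.1.14, Trim Galore 0.6.5, bedtools and the builds hg38 and dm6 were used. Aligner, conversion caller and strand setting: not given in the sources used here.

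Spike-in counts per library ran from 1817677 to 2212752, 10.01 to 11.67% of each library, and their total was taken as library size. The robust two-sided quasi-likelihood test of edgeR 4.0.16 (R 4.3.3) was run on all 10 libraries together, after dropping genes that did not reach 10 counts in 2 or more libraries. Calls were made at a Benjamini-Hochberg adjusted p under 0.05. The fits held 7996 (labelled), 14572 (total) and 7960 (labelled share) genes, with 5 residual degrees of freedom. The share test fitted labelled and unlabelled counts with library as a block. Intervals of log2 changes are 95% from the SE and these degrees of freedom. Symbols came from GENCODE 29, which held 55838 of 59204 identifiers. Alternatives were TMM, size factors of spike-in genes, DESeq2 1.42.0, no filter, a replicate block, only the groups compared and each library left out. The scripts were tested on simulated data. The separate values of 1 coactivator and 1 marker gene are not reported here.

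MYB, the gene lists and the rule for named genes (any measured member of a list, and the 8 genes closest to MYB) were chosen with earlier results of these data known. The count of genes with the total RNA pattern of MYB, the list counts on the TMM scale and the list counts with a library left out were added after seeing the data.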

Additional observations from a re-analysis of the deposited data

How the results depend on the processing

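For MYB, 194 values kept direction and side of the threshold, 16 lost the call, 6 gained it and 9 changed sign. New RNA with JQ1 and A-485 against DMSO, and total RNA with JQ1 against DMSO and with JQ1 or A-485 against actinomycin D, kept their calls throughout. Low labelled counts, 1 to 18 per treated library with 1 at 0, limit the precision of labelled MYB. The cause of the changes below was not tested.

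With TMM scaling, labelled MYB against DMSO was -2.43 with actinomycin D (edgeR adjusted p = 0.199) and -0.38 with AZ-5576 (adjusted p = 0.574). Set against actinomycin D it was 2.05 under AZ-5576, 0.11 under JQ1 and -1.46 under A-485. Relative to AZ-5576 it was called lower, at -1.94 under JQ1 and -3.51 under A-485. Total MYB on this scale was 0.24 with actinomycin D against DMSO, -0.30 with AZ-5576 against actinomycin D, -0.37 with A-485 against AZ-5576 and -0.05 with A-485 against JQ1. HDAC7 (0.20) and ZBTB7B (0.50) turned in labelled RNA with AZ-5576. Size factors of spike-in genes gave 0.02 for total MYB with actinomycin D. DESeq2 gave 3.90 for labelled AZ-5576 against actinomycin D (adjusted p = 0.0524) and, for total A-485 against AZ-5576, -0.27 (adjusted p = 0.0494). The latter was also called with only these groups in the fit (-0.27, adjusted p = 0.0152), where JQ1 against AZ-5576 was not (-0.36, adjusted p = 0.0804).

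Replicate numbers in the titles are not said to mark a batch, and deviations of same-numbered libraries correlated at -0.02 to 0.07 in labelled and -0.06 to 0.22 in total RNA. The replicate block called total A-485 against AZ-5576 (-0.27, adjusted p = 0.0169), changed no other call of MYB, and raised the genes lower in total RNA to 1972 with JQ1 against DMSO, 213 with JQ1 against actinomycin D and 435 with JQ1 against AZ-5576, from 1071, 81 and 103.

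With 1 library left out, labelled MYB ranged from 2.5 to 5.87 for AZ-5576 against actinomycin D, 1.83 to 5.64 for A-485 against actinomycin D and -1.76 to 0.86 for A-485 against AZ-5576, which turned without AZ-5576 replicate 2 (0.86) and A-485 replicate 2 (0.50). Total MYB ranged from -0.07 to 0.05 with actinomycin D, turning without DMSO replicate 2 (0.03) and actinomycin D replicate 1 (0.05), from -0.51 to -0.43 with A-485 and from -0.4 to -0.32 for JQ1 against AZ-5576.

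Counts of all genes moved more. On the TMM scale, 711, 2084 and 393 genes were lower in labelled RNA (actinomycin D, AZ-5576, JQ1) against 7933, 7574 and 2286 with the spike-in, and in total RNA 1153, 1210 and 288 (2874, 1878 and 1071). There, 482 were higher with JQ1 against DMSO, and 431, 821 and 824 higher (AZ-5576, JQ1, A-485) against actinomycin D in labelled RNA, with 368 and 766 lower in total RNA with JQ1 and A-485. With 1 library left out, genes lower in labelled RNA were 1049 to 1675 with JQ1 and 191 to 217 with A-485, and 51 to 61 were higher with JQ1. In total RNA they were 1205 to 2725 (actinomycin D), 903 to 1626 (AZ-5576), 277 to 973 (JQ1) and 71 to 138 (A-485), the lowest without DMSO replicate 2. For the share they were 309 to 978 with JQ1 and 63 to 115 with A-485. Against actinomycin D, 877 to 1597 were higher in labelled RNA with AZ-5576, and 26 to 160 and 49 to 84 lower in total RNA with JQ1 and A-485, and 21 to 203 lower with JQ1 than with AZ-5576.

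For the other named genes 1040 values kept their call, 158 lost it and 2 turned.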
